A study of Rattus norvegicus with 6 samples.

Results

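The transcripts described here encode proteins of the cardiac sarcomere: its thick and thin filaments, the Z-disc that anchors the thin filaments, the M-band that ties the thick filaments together, and the chaperones that fold and maintain them. They were taken as a fixed list of 45 gene symbols. Of these, 43 had a row in the count table, 39 passed the low-count filter out of 9205 tested symbols and 17487 symbols in all, and Ttn (titin) and Xirp1 were not analysed here. Heart tissue came from 6 adult male Wistar rats, 1 library each. The 3 doxorubicin rats had weekly tail vein doses of 3.75 mg/kg doxorubicin hydrochloride, an anthracycline chemotherapy drug that damages heart muscle, for 4 weeks, and the 3 control rats had 0.9% saline on that schedule. The strain is outbred, no allele or transgene is named, and the part of the heart and the interval after the last dose are not given in the sources used here.

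In the sarcomere, myosin heads on the thick filament pull on actin in the thin filament when calcium binds the troponin complex. Several of these proteins exist in a form typical of the adult ventricle and in a form typical of the fetal heart, the atrium or slow skeletal muscle. In rodents the adult ventricle runs mainly on alpha myosin heavy chain (Myh6), and a shift toward beta myosin heavy chain (Myh7) and skeletal alpha-actin (Acta1) is a long-known feature of the loaded or failing heart.

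No member passed the adjusted threshold, but 14 of the 39 tested had an unadjusted p under 0.05. Higher in doxorubicin were the slow or fetal forms Myh7, Myh7b, Acta1, Tnni1 and Tpm2, the actin filament nucleator Lmod2, and the Z-disc genes Xirp2, Pdlim5, Pdlim3, Flnc and Tcap. Lower were Myh6, Tnni3 and Fhl2. The sizes ran from 4.05-fold for Tpm2 and 3.84-fold for Myh7 to 1.44-fold for Lmod2 among the higher ones. Tpm2, on 2 rows, rested on only 4 to 42 counts per library and Tnni1 on 4 to 21. All members together took 14.6% to 15.2% of the counts of the control libraries and 14.9% to 17.0% of those of the doxorubicin libraries, so the summed level overlapped between the groups.

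All symbols were tested with the quasi-likelihood method of edgeR, with Benjamini-Hochberg adjustment and a threshold of 0.05. It called 0 of the 39 members against 0.0543% of all tested symbols. DESeq2, run without the low-count filter, called 3 of the members, Acta1, Myh7b and Tpm2, and 74 of 10265 symbols. Without that filter edgeR called 2 of the members, Myh7b and Tpm2, and 61 of 13050 symbols. At an unadjusted p under 0.05 the 14 members were 35.9% of those tested, against 8.10% of all symbols. They were 11 higher, where the share of all symbols was 4.00%, and 3 lower, where it was 4.11%. The 3 doxorubicin values lay wholly above the 3 control values for 9 members and wholly below for 4, 33.3% in all. Among all tested symbols, 13.4% had groups without overlap, with 6.39% higher and 7.06% lower. Members are abundant transcripts, which are measured with less counting error. Among symbols with a mean level of at least 100 CPM (counts scaled to library size), 12.4% had an unadjusted p under 0.05 and 18.0% did not overlap. The 31 members at that level held 12 (38.7%) with such a p and 11 (35.5%) without overlap. The median log2 fold change was 0.19 over the members and 0.02 over all symbols. With a library left out the members' median ran from 0.08 (without doxorubicin library 1) to 0.29 (without doxorubicin library 2), and it was 0.12 without doxorubicin library 3. Without doxorubicin library 1 the count of 14 became 7, and without doxorubicin library 3 it became 9. The shares of all symbols in these 2 smaller fits are not given here. Leaving out a library can lower the count over all symbols too. Without control library 1 it was 531 of 9465, against 746 of 9205 with every library, and the members numbered 11.

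**Figure D1:**
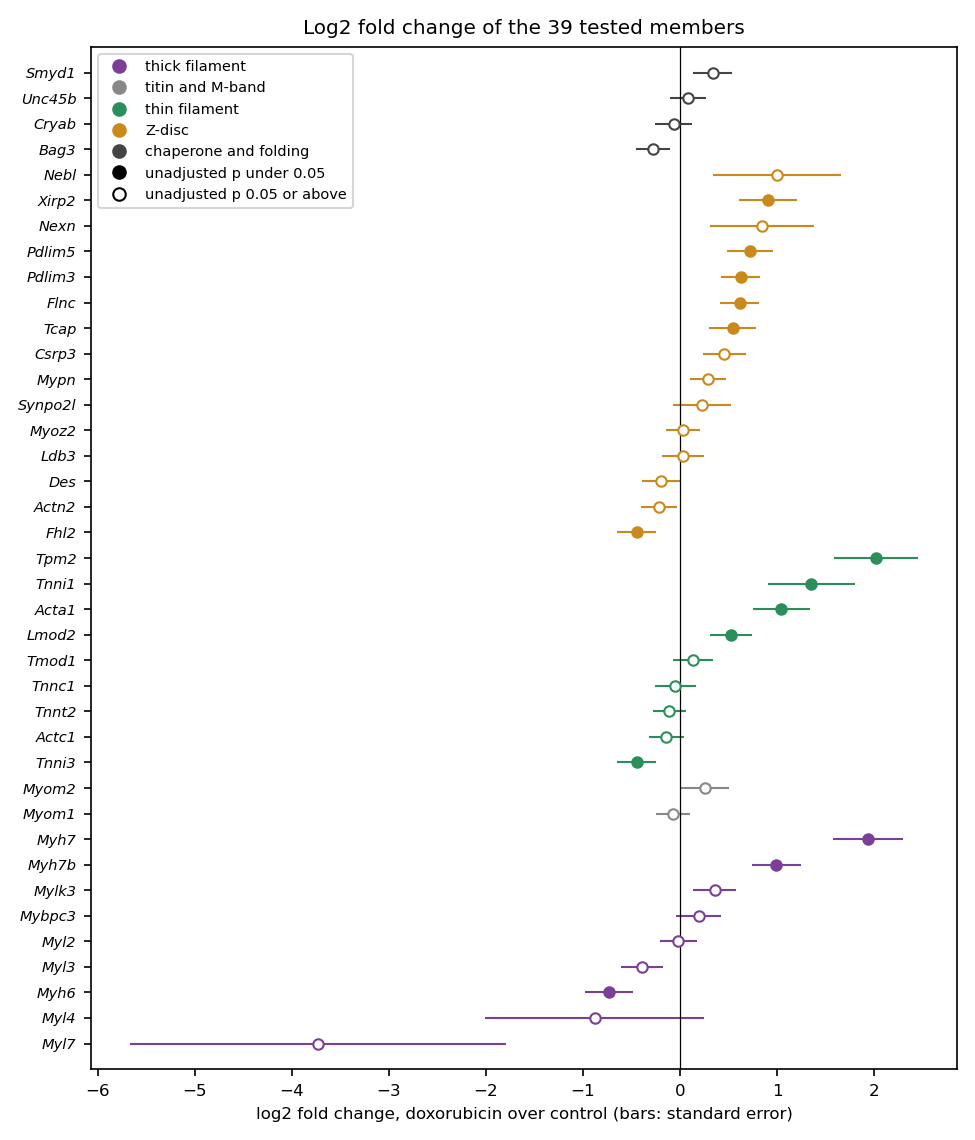
Log2 fold change of doxorubicin over control for the 39 tested members, by role, with the standard error as a bar and filled points for an unadjusted p under 0.05. The filled points on the right run from 0.53 (Lmod2) to 2.02 (Tpm2), and those on the left are Myh6, Tnni3 and Fhl2.

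Libraries held 2219685 to 3508282 counts, and 3 counts, the smallest number taken as detectable, were 0.852 to 1.33 CPM. The cardiomyocyte label was checked on genes outside the sarcomere: 9 of 10 markers had counts, with summed levels of 42473 to 54950 CPM in control and 30569 to 38798 CPM in doxorubicin libraries, and Slc8a1, on 9 rows, was listed at 0. Myoglobin (Mb), at 25408 to 31570 CPM in control and 16558 to 21318 CPM in doxorubicin libraries, was the main part of that difference. Of the 9 tested markers, 2 (Mb and Fabp3) were lower without overlap, 22.2% against 13.4% without overlap among all symbols. The others overlapped. By sign 6 were lower and 3 were higher (Tbx20, Pln and Cacna1c). At an unadjusted p under 0.05 in edgeR, 3 were lower (Mb, Fabp3 and Ckm) and 1 was higher (Tbx20). These were 44.4% of the tested markers, against 8.10% of all symbols. Ckm, with overlap, had a log2 fold change of -0.68 (SE 0.24, edgeR unadjusted p 0.0122). The 8 macrophage markers, all detected, summed to 226 to 233 CPM in control and 281 to 451 CPM in doxorubicin libraries. Lyz2, with means of 97.3 CPM in control and 172 CPM in doxorubicin, was the main part of that difference. Lyz2 and Mrc1 were higher without overlap (25% of the 8, against 13.4% without overlap among all symbols). The other macrophage markers overlapped, and Adgre1 was lower by sign. The summed fibroblast (7 of 7 detected) and endothelial (also 7) markers overlapped between the groups. Whether these differences in other cell types play a part in the members' values was not tested. In whole tissue, fewer cells of a type and less RNA per cell cannot be told apart.

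In the thick filament, the balance of the myosin heavy chains differed between the groups. Myh6, the fast alpha chain, was at 18856, 26379 and 28539 CPM in control libraries 1, 2 and 3 and at 11449, 20903 and 12112 CPM in doxorubicin libraries 1, 2 and 3. Doxorubicin libraries 1 and 3 lay below all controls and doxorubicin library 2 lay within their range. Myh6 thus had a log2 fold change of -0.73 (SE 0.25; edgeR unadjusted p 0.0107, adjusted 0.411).

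Myh7, the slower beta chain, was at 8298, 3450 and 4059 CPM in control and 28291, 11993 and 20432 CPM in doxorubicin libraries, in the same order of libraries as used from here on. Every doxorubicin value was above every control value, and doxorubicin library 2 was the nearest to the controls. On the log2 scale Myh7 was higher by 1.94 (SE 0.36; edgeR adjusted p 0.0944), with a DESeq2 adjusted p of 0.0502. With a library left out the difference ran from 1.63 to 2.44. The edgeR adjusted p was 0.00465 without doxorubicin library 2 and 0.163 to 0.352 when any other library was left out. The sum of Myh6 and Myh7 was 29861 ± 2721 CPM for the control group and 35060 ± 4057 CPM for the doxorubicin group (SD, n = 3), with overlap (2-sided exact permutation test, p = 0.2). Within that sum the Myh7 share of counts averaged 18.2% ± 10.7 for control and 56.8% ± 18.1 for doxorubicin. The shares did not overlap (2-sided exact permutation test, p = 0.1, or 0.167 adjusted over 5 isoform shares). With 3 against 3 this test cannot go below 0.1. Control library 1, at 30.6%, had the highest Myh7 share of the controls.

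Myh7b, another sarcomeric myosin heavy chain, related to the slow form, was at 89.4, 168 and 139 CPM in control and 318, 287 and 185 CPM in doxorubicin libraries. The groups did not overlap, and control library 1 was the lowest here, where for Myh7 it was the highest control. Myh7b had a log2 fold change of 0.99 (SE 0.25; adjusted p 0.188 in edgeR, 0.0240 in DESeq2). Myh6, Myh7 and Myh7b are paralogs, and how reads that match several of them were counted is not given in the sources used here.

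Myh6 and Myh7 each hold a heart microRNA in an intron, and their mature 3′ arms are shown because they share the seed (bases 2 to 8, in capitals), which sets the targets. The sequences are RefSeq's, on the minus strand of assembly GRCr8, at chr15:32395568-32395585 for miR-208a-3p and chr15:32421648-32421665 for miR-208b-3p.

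rno-miR-208a-3p, host Myh6: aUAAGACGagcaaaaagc

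rno-miR-208b-3p, host Myh7: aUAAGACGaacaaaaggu

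The libraries were made from polyadenylated RNA and do not measure mature microRNAs. The hairpin row of Mir208a was at 0 in all 6 libraries. The row of Mir208b had 6, 2 and 20 counts in control and 4, 7 and 5 counts in doxorubicin libraries, so the groups overlapped while the host Myh7 differed between them.

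The values of all 4 myosin light chains overlapped between the groups. Myl2, the ventricular regulatory light chain, was at 18133, 12183 and 14074 CPM in control and 15075, 14981 and 13823 CPM in doxorubicin libraries, while Myl3, the ventricular essential light chain, at 19816, 11025 and 13448 CPM against 11570, 11636 and 10626 CPM. Control library 1 was the highest for each. Their log2 fold changes were -0.02 (SE 0.19) for Myl2, with a positive sign under library-size scaling alone, and -0.39 (SE 0.22) for Myl3, or -0.11 without control library 1.

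The atrial regulatory light chain gene Myl7 had 429, 10 and 10 counts in control and 20, 14 and 7 counts in doxorubicin libraries. The atrial and fetal essential light chain gene Myl4 had 179, 18 and 23 counts against 81, 17 and 46 counts. Control library 1 stood apart for both genes, and the log2 fold changes of -3.73 for Myl7 (SE 1.94) and -0.88 for Myl4 (SE 1.13) became 0.27 and 1.06 without it.

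Of the 5 atrial markers, Mybphl was at 3.82 CPM in control library 1 and at most 0.295 CPM elsewhere. Bmp10 had at most 2 counts in any library, fewer than the 3 taken as detectable. Sln was at 22.9, 0 and 16.8 CPM in control and 1.93, 0.312 and 0 CPM in doxorubicin libraries. Gja5 was not highest there, at 13.4, 15.5 and 11.9 CPM in control and 18.9, 8.74 and 16.5 CPM in doxorubicin libraries. The 5 markers summed to 190 to 485 CPM in control and 286 to 3273 CPM in doxorubicin libraries, most of it Nppa, which the stressed ventricle also makes. The blood markers (4 of 5 detected) were also highest in control library 1, at 7132 CPM summed against 649 to 2591 CPM elsewhere. The part of atrial tissue or blood in the values of control library 1 was not tested.

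The other thick filament members overlapped between the groups. Mybpc3 (cardiac myosin binding protein C) was at 5018 ± 321 CPM (SD, n = 3) for control and 5736 ± 2022 CPM for doxorubicin, with 8048 CPM in doxorubicin library 1 and 4864 and 4296 CPM in the other doxorubicin libraries. Its log2 fold change of 0.19 (SE 0.23) was -0.13 without doxorubicin library 1. Mylk3, the cardiac myosin light chain kinase, differed by 0.36 on the log2 scale (SE 0.22), with its highest value, 922 CPM, in doxorubicin library 3, and by 0.11 without that library. Of 9 thick filament members, 2 were higher and 1 was lower at an unadjusted p under 0.05 (33.3% in all, against 8.10% of all symbols).

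**Figure D2:**
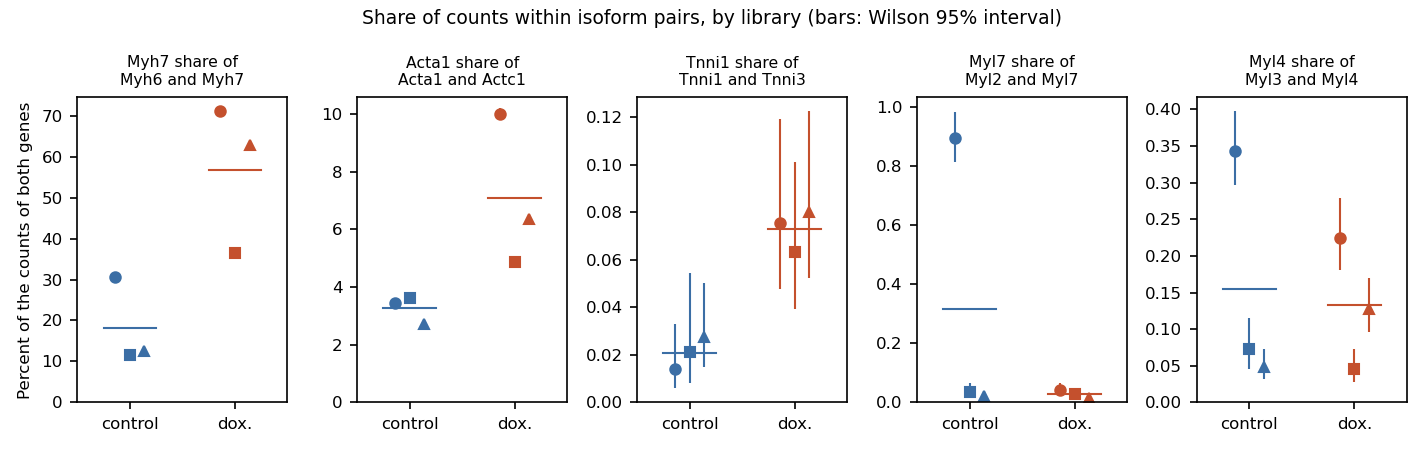
Percent of the counts of each isoform pair that came from the named gene, by library, with Wilson 95% intervals that cover counting error only and the group mean as a line; each panel has its own axis from 0. The doxorubicin libraries lie above all controls for Myh7 (36.5% to 71.2%), Acta1 and Tnni1, and control library 1 lies apart for Myl7 (0.895%).

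Among the actins, Acta1 (skeletal alpha-actin) was higher and Actc1 (cardiac alpha-actin) overlapped between the groups. Acta1 was at 1026, 930 and 600 CPM in control and 2647, 1137 and 1490 CPM in doxorubicin libraries. Doxorubicin library 1 stood well above the rest, and doxorubicin library 2 was only just above control library 1. Acta1 had a log2 fold change of 1.05 (SE 0.29; adjusted p 0.261 in edgeR, 0.0322 in DESeq2), and of 0.63 without doxorubicin library 1. Actc1 was at 28720, 24682 and 21599 CPM in control and 23865, 22243 and 21949 CPM in doxorubicin libraries, a log2 fold change of -0.14 (SE 0.18).

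As a share of the counts of both actins, Acta1 took 3.45%, 3.63% and 2.70% in control and 9.98%, 4.86% and 6.36% in doxorubicin libraries. The means were 3.26% ± 0.491 and 7.07% ± 2.63 (SD, n = 3), with no overlap (2-sided exact permutation test, p = 0.1, the smallest that 3 against 3 can give; 0.167 adjusted over 5 isoform shares). The coding sequences of the actins are nearly identical, and how shared reads were divided is not given in the sources used here.

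Promoter windows of Acta1, Fhl2 and Myl3 are shown because these 3 were the tested members with both a CArG box, the site bound by serum response factor, and an MCAT motif (CATTCC), the site bound by TEAD factors, in the same window. They cover 250 bases before to 50 after the RefSeq start in assembly GRCr8, and capitals mark both motifs on either strand. Acta1 lies at chr19:68784145-68784444 on the minus strand, Fhl2 at chr9:52954491-52954790 on the minus strand (1 of its 2 windows), and Myl3 at chr8:119616844-119617143 on the plus strand.

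Acta1: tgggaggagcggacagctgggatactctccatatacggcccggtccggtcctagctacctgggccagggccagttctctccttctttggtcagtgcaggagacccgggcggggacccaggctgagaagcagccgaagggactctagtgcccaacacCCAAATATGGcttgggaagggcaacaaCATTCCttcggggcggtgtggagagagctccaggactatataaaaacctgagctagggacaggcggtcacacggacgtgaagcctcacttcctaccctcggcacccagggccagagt

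Fhl2: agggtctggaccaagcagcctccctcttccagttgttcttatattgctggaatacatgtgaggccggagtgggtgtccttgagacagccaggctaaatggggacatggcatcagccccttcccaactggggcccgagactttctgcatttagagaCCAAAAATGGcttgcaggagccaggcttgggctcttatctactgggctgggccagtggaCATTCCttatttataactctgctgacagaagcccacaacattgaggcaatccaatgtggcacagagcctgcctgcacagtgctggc

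Myl3: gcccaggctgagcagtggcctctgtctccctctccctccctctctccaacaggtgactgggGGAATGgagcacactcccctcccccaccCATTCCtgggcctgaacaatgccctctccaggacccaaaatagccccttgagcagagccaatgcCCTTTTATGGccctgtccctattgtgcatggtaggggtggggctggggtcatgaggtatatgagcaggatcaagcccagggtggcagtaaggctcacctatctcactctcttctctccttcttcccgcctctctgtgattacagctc

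The CArG box begins 94 bases before the start of Acta1, 95 before that of Fhl2 and 97 before that of Myl3. A CArG box was found in a window of 6 of the 32 tested members with a promoter (18.8%: Acta1, Actc1, Fhl2, Ldb3, Myl3 and Nebl) and in 1.64% of all 33469 windows. MCAT was found for 9 members (28.1%) and in 14.2% of all windows, and a MEF2 site for 5 (15.6%) and in 3.29%. The TATA box (TATAAA) was found for 1 member, Acta1 (3.12%), and in 8.8% of all windows. The searches covered both strands, or the gene's strand alone for the TATA box, and 2 members had 2 windows. These 3 genes did not go the same way: Acta1 was higher in doxorubicin, Fhl2 was lower, and the groups overlapped for Myl3. A match of letters is a description of the window and no measure of binding.

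Of the troponins, Tnni3 (cardiac troponin I) was at 13569, 8405 and 10372 CPM in control and 7644, 8387 and 7721 CPM in doxorubicin libraries. The values did not overlap, although control library 2 and doxorubicin library 2 were nearly equal. Tnni3 had a log2 fold change of -0.45 (SE 0.20; edgeR unadjusted p 0.0444, adjusted 0.594), and of -0.24 without control library 1. Tnni1, the slow skeletal and fetal form of troponin I, had 5, 4 and 10 counts in control and 18, 17 and 21 counts in doxorubicin libraries. Its log2 fold change was 1.35 (SE 0.45, unadjusted p 0.00921; edgeR adjusted p 0.396) on these few counts, and the groups did not overlap.

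The Tnni1 share of the troponin I counts averaged 0.0209% ± 0.00666 for control and 0.0729% ± 0.00874 for doxorubicin (SD, n = 3; 2-sided exact permutation test, p = 0.1; 0.167 adjusted over 5 isoform shares). Tnni3 thus made up nearly all troponin I counts in every library. Tnnt2 (cardiac troponin T) was at 17276, 17860 and 17778 CPM in control and 17188, 16471 and 15378 CPM in doxorubicin libraries, without overlap but with a log2 fold change of only -0.11 (SE 0.17). Tnnc1 (cardiac troponin C) overlapped, at a log2 fold change of -0.05 (SE 0.21).

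Tpm2 (beta-tropomyosin), a slow muscle and smooth muscle form, was at 1.91, 1.78 and 4.54 CPM in control and 13.5, 12.5 and 9.43 CPM in doxorubicin libraries. All doxorubicin values were at least 9.43 CPM and no control value passed 4.54 CPM, on 4 to 42 counts per library summed over 2 rows. Tpm2 had a log2 fold change of 2.02 (SE 0.43; adjusted p 0.125 in edgeR, 0.0254 in DESeq2). Tpm1, the main cardiac tropomyosin, stood on 12 rows and was listed at 0 in all libraries, so no tropomyosin share was formed and Tpm2 may be incomplete. Smooth muscle also makes Tpm2. Its 5 markers other than desmin, which cardiomyocytes make too, were all detected and summed to 354 to 472 CPM in control and 299 to 419 CPM in doxorubicin libraries. Myh11, the smooth muscle myosin, was at 39.3 to 110 CPM and 54.2 to 122 CPM. The 11 skeletal muscle markers summed to 2.67 to 5.40 CPM in control and 4.17 to 10.3 CPM in doxorubicin libraries, with Tnnt3, on 13 rows, and Pvalb listed at 0.

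At the ends of the thin filament, Lmod2 (leiomodin 2), which lengthens it, was at 471, 604 and 663 CPM in control and 994, 597 and 915 CPM in doxorubicin libraries. Doxorubicin library 2 lay within the control range and the other doxorubicin libraries lay above it, with a log2 fold change of 0.53 (SE 0.22; edgeR adjusted p 0.548). Tmod1 (tropomodulin 1), the capping protein that opposes it, overlapped, at 0.13 on the log2 scale (SE 0.21). Of 9 tested thin filament members, 4 were higher and 1 was lower at an unadjusted p under 0.05 (55.6% in all, against 8.10% of all symbols).

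**Figure D3:**
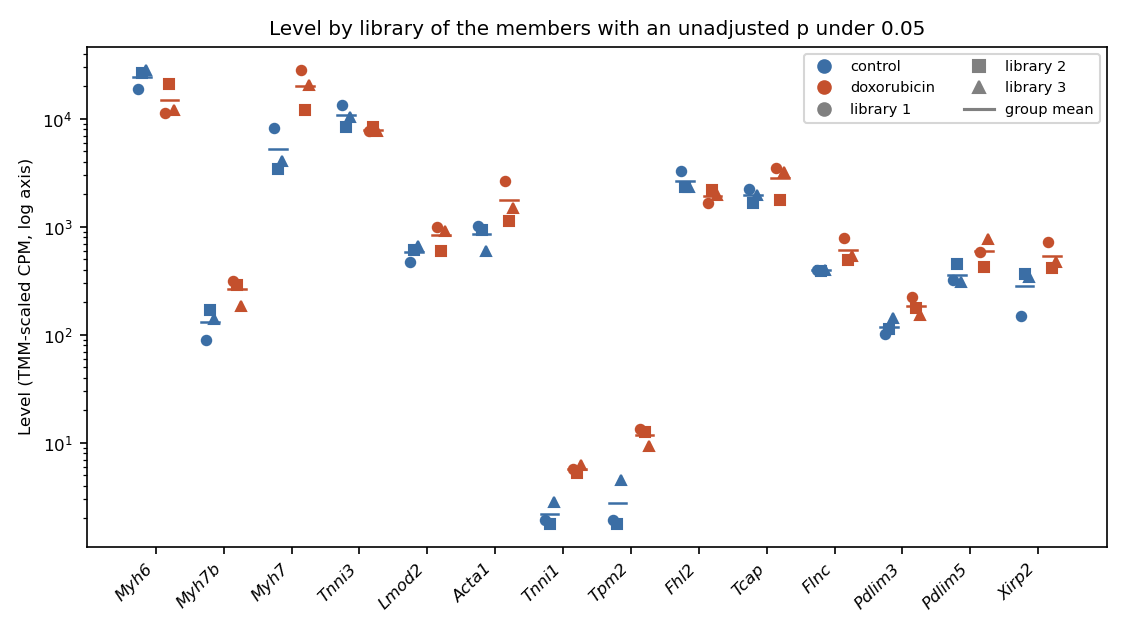
Level in each library, on a log axis in TMM-scaled CPM, of the 14 members with an unadjusted p under 0.05; the marker shape gives the library number and the line the group mean. Doxorubicin library 2 (square) lies nearest to the controls for Myh6, Myh7, Acta1, Lmod2 and Tcap, and Tnni1 and Tpm2 rest on under 15 CPM.

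In the Z-disc, the group with the most tested members, 12 of 15 had higher values, as did 4798 of all 9205 tested symbols. At an unadjusted p under 0.05, 5 were higher and 1 was lower (40% in all, against 8.10% of all symbols). The median log2 fold change of the Z-disc members was 0.46, and 0.27 without doxorubicin library 3. Xirp2 (xin actin-binding repeat protein 2), which sits at the Z-disc and intercalated disc, was at 148, 368 and 341 CPM in control and 719, 417 and 471 CPM in doxorubicin libraries. Without overlap, control library 1 was the lowest of all and doxorubicin library 1 the highest, with a log2 fold change of 0.91 (SE 0.30; edgeR adjusted p 0.404) that was 0.60 without control library 1.

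Flnc (filamin C), an actin crosslinker that is replaced when the Z-disc is strained, was at 398, 393 and 395 CPM in control, a spread of 2.81 CPM (SD), and at 787, 491 and 541 CPM in doxorubicin libraries. Flnc had a log2 fold change of 0.62 (SE 0.20; edgeR adjusted p 0.383), and of 0.39 without doxorubicin library 1. Each doxorubicin value was above the tight control range.

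Pdlim3, a PDZ and LIM protein bound to alpha-actinin, was at 102, 113 and 142 CPM in control and 224, 176 and 153 CPM in doxorubicin libraries, without overlap. Its log2 fold change was 0.63 (SE 0.20; edgeR adjusted p 0.371). Its relative Pdlim5 was at 320, 450 and 305 CPM in control and 581, 423 and 770 CPM in doxorubicin libraries, with doxorubicin library 2 below control library 2. Its log2 fold change was 0.72 (SE 0.23; edgeR adjusted p 0.378).

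Tcap (telethonin), which links the ends of titin molecules in the Z-disc, was at 2234, 1651 and 1978 CPM in control and 3537, 1768 and 3250 CPM in doxorubicin libraries. Doxorubicin library 2 again lay within the control range, and the log2 fold change was 0.55 (SE 0.24; edgeR adjusted p 0.592). Csrp3 (muscle LIM protein) was at 1314, 1432 and 1091 CPM in control and 2342, 1466 and 1463 CPM in doxorubicin libraries. The groups did not overlap, but doxorubicin libraries 2 and 3 were close above control library 2. Csrp3 had a log2 fold change of 0.46 (SE 0.22; edgeR unadjusted p 0.0540), and of 0.20 without doxorubicin library 1.

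Fhl2, a LIM-only protein bound to titin, went the other way, at 3264, 2328 and 2351 CPM in control and 1658, 2207 and 1974 CPM in doxorubicin libraries. No doxorubicin value reached a control value, and the log2 fold change of -0.44 (SE 0.20; edgeR unadjusted p 0.0437, adjusted 0.594) was -0.26 without control library 1. Other structural genes of the Z-disc overlapped: on the log2 scale Actn2 (alpha-actinin 2) differed by -0.21 (SE 0.18) and Myoz2 (myozenin 2) by 0.03 (SE 0.17). The intermediate filament gene Des (desmin), which ties Z-discs together, differed by -0.20 (SE 0.19).

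Mypn (myopalladin) had a log2 fold change of 0.29 (SE 0.18). Nebl (nebulette) was at 36.3, 35.6 and 136 CPM in doxorubicin and 17.9 to 53.3 CPM in control libraries, so that only doxorubicin library 3 lay above the controls, at a log2 fold change of 1.00 (SE 0.66) that was 0.06 without it. Nexn (nexilin) had 3 to 25 counts per library on 2 rows, and Synpo2l 41 to 101 counts on 2 rows. Ldb3, an alpha-actinin partner, had 153 to 268 counts, all on 1 of its 5 rows. These 3 overlapped between the groups, but as symbols on several rows their counts may be incomplete.

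In the M-band, Myom1 (myomesin 1), which crosslinks thick filaments, was at 1065 ± 57.6 CPM (SD, n = 3) for control and 1014 ± 115 CPM for doxorubicin, a difference on the log2 scale of -0.07 (SE 0.18). Myom2 (myomesin 2), the form of adult fast fibres, was at 4347, 4439 and 3936 CPM in control and 7529, 3802 and 3846 CPM in doxorubicin libraries. Doxorubicin library 1 was far above all others and the other doxorubicin libraries were below every control, and the log2 fold change of 0.25 (SE 0.25) was -0.14 without it.

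Among the chaperones, 0 of 4 had an unadjusted p under 0.05, against 8.10% of all symbols. Cryab (alpha-B-crystallin), a small heat shock protein of the Z-disc, was at 5729 ± 1153 CPM (SD, n = 3) for control and 5484 ± 254 CPM for doxorubicin, with overlap. Bag3, a co-chaperone for the removal of damaged filamin, was at 708, 576 and 630 CPM in control and 482, 551 and 550 CPM in doxorubicin libraries. Unlike Cryab, Bag3 did not overlap between the groups, but its log2 fold change of -0.27 (SE 0.18) had an edgeR unadjusted p of 0.142. On the log2 scale the myosin chaperone gene Unc45b differed by 0.09 (SE 0.19), and Smyd1, a methyltransferase that works with it, by 0.34 (SE 0.20), or 0.17 without doxorubicin library 3.

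**Figure D4:**
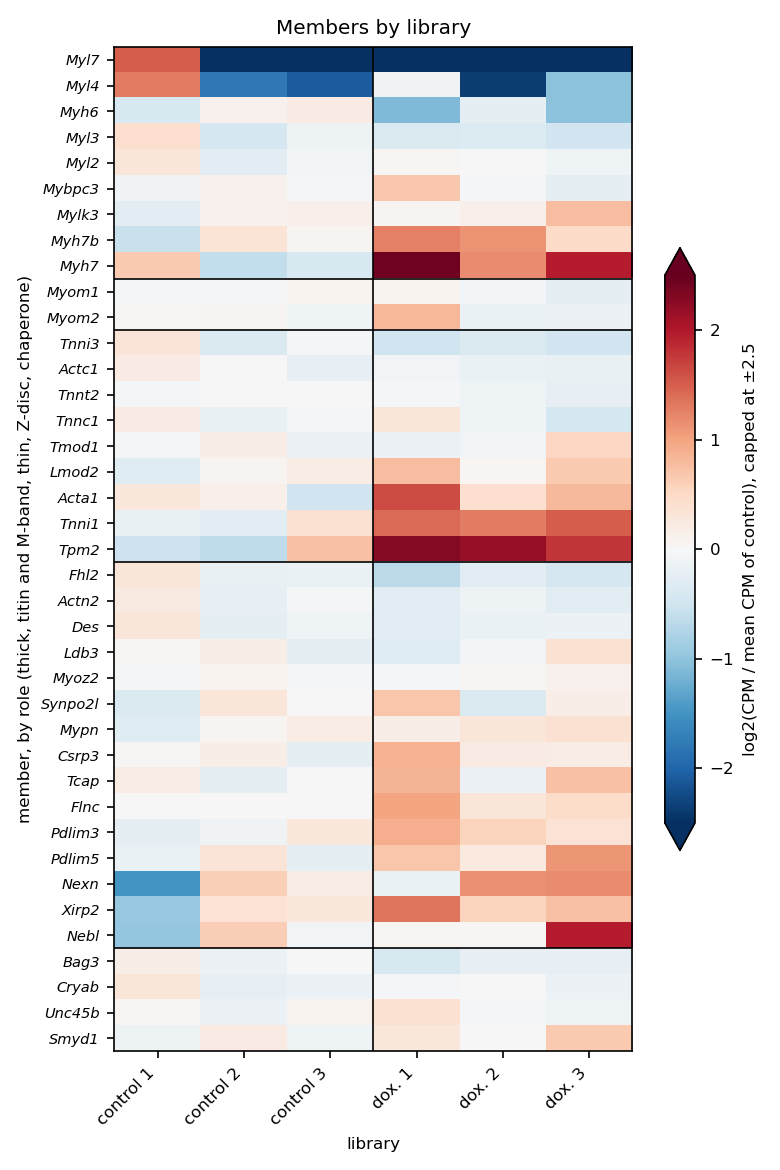
Log2 ratio of each member's CPM to its control mean (colour, capped at 2.5 on either side) in the 6 libraries, with members grouped by role. Doxorubicin library 1 has the highest value of 15 of the 39 members, doxorubicin library 3 of 10 and doxorubicin library 2 of 0, and control library 1 has the highest Myl7 and Myl4.

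The highest of the 6 values fell unevenly over the doxorubicin hearts. Doxorubicin library 1 had it for 15 members (38.5%, against 18.5% of all symbols), among them Myh7, Acta1, Mybpc3, Myom2, Csrp3, Flnc and Xirp2. Doxorubicin library 3 had the highest for 10 (25.6%, near the 20.6% of all symbols), among them Mylk3, Tmod1, Pdlim5, Nebl and Smyd1. Doxorubicin library 2 had the highest value for 0 members, although over all tested symbols it had the highest value for 12.5%. Control library 1 had the highest for 11 members (28.2%, near the 26.7% of all symbols), among them Myl2, Myl3, Actc1, Tnni3, Des, Cryab and Fhl2. The cause of these differences was not tested.

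Repeated symbols bear on what could be seen. Of the 43 members with a row, 7 stood on several rows: Tpm1 on 12, Fhl1 and Ldb3 on 5, Tnnt1 on 4, and Nexn, Synpo2l and Tpm2 on 2. Tpm1, Fhl1 and Tnnt1 were listed at 0 in all libraries, as was Smpx on its single row. Over the table, 48.6% of the 599 symbols on several rows were at 0 everywhere and 67.6% of the 37 on at least 5 rows, against 24.5% of the 16888 symbols on 1 row. How reads that fall in several rows were counted is not given in the sources used here, so a 0 for Tpm1, which every cardiomyocyte needs, is no measure of its level.

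A list of 42 other sarcomere genes gave 25 tested symbols, of which 0 passed the adjusted threshold in edgeR. At an unadjusted p under 0.05, 7 were higher and 1 was lower, 32% against 8.10% of all symbols and 35.9% of the members. The groups did not overlap for 9, 36% against 13.4% of all symbols and 33.3% of the members. The list's median log2 fold change was 0.14. The most marked were low in the heart: Mybpc2, the fast skeletal myosin binding protein C, was at 4.58, 4.00 and 3.98 CPM in control and 20.9, 8.11 and 11.2 CPM in doxorubicin libraries, a log2 fold change of 1.67 (SE 0.42). Myot (myotilin), a Z-disc protein, was at 6.11, 10.2 and 3.69 CPM in control and 13.2, 16.2 and 19.7 CPM in doxorubicin libraries, a log2 fold change of 1.34 (SE 0.38). Neither overlapped between the groups.

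Also higher without overlap were Synpo2 (synaptopodin 2, 0.79 on the log2 scale), Klhl41 (a filament-stabilising Kelch protein, 0.68), Trim55 (a titin-bound ubiquitin ligase, 0.47) and Speg (a kinase beside the sarcoplasmic reticulum, 0.40). Lrrc10, a heart-specific leucine-rich repeat protein that binds alpha-actinin, was lower without overlap, at 1165, 863 and 922 CPM in control and 532, 810 and 761 CPM in doxorubicin libraries. Its log2 fold change was -0.49 (SE 0.21; edgeR adjusted p 0.558).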

How the data were processed

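RNA of 6 rat hearts (3 doxorubicin, 3 control) was measured by sequencing of polyadenylated RNA. The authors deposited raw counts per annotated feature. FastQC, Trimmomatic, STAR, HTSeq and the build mRatBN7.2 are named in the submitters' processing notes, while strand use, annotation and the treatment of shared reads are not given in the sources used here. The 18473 rows were summed to 17487 symbols.

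edgeR 4.0.16 (R 4.3.3) fitted treatment across all symbols passing filterByExpr (minimum count 10, minimum total 15), with trimmed mean of M-values (TMM) scaling and robust dispersion. Standard errors (SE) are the absolute log2 value divided by the square root of F. Isoform shares were compared by exact permutation (scipy 1.17.1). Alternatives were other scalings and filters, DESeq2 1.42.0 (run without the low-count filter) and limma 3.58.1 (voom). Further ones were the replicate block, the largest row per symbol, and leaving out each library. The edgeR step was tested on simulated counts. At the adjusted threshold it recovered 55 of 97 genes changed 2-fold and 95 of 97 changed 4-fold. It also called 9 unchanged genes. Changes of 2-fold or less can thus be missed.

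The members and lists were chosen with earlier results of these data known. Members with an unadjusted p under 0.05 or no overlap, and genes of isoform pairs, are given in every library. Of the other sarcomere genes, those that meet both are named. The comparison at 100 CPM, the promoter motifs and the microRNA rows were added after the data were seen. Sequences are from RefSeq (GRCr8), another assembly than the authors' build.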

Additional observations from a re-analysis of the deposited data

How the results depend on the processing

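Over all symbols, 5 passed the adjusted threshold in the edgeR fit. The number was 0 with library-size scaling alone (713 at an unadjusted p under 0.05), 61 with no low-count filter and 1 at a mean of at least 5 CPM. It was 74 with DESeq2, also run with no low-count filter, 0 with limma voom (740 unadjusted) and 1 with non-robust dispersion. When a library was left out it was 0 to 35, the highest without doxorubicin library 2. Of the members, 0 passed; 2 did with no filter (Myh7b, Tpm2), 3 with DESeq2, and 0 to 1 with a library left out (Myh7 without doxorubicin library 2). Members at an unadjusted p under 0.05 numbered 14 (746 over all symbols), and 7 to 15 with a library left out. Without control library 1 they numbered 11, with 531 over all symbols.

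Deviations of same-numbered libraries correlated at 0.0211, -0.185 and -0.0559, so the numbers were not treated as pairs. With the replicate block, 13 symbols and 1 member (Myh7) passed.

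The sign of Myl2, at -0.02 on the log2 scale, turned to 0.081 with library-size scaling alone, 0.0017 with limma voom and 0.0019 with the replicate block, and ran from -0.13 to 0.16 with a library left out. Over the same omissions Myl4 ran from -1.52 to 1.06 and Myl7 from -4.30 to 0.27, and the difference in share from -0.437 to 0.000567 percentage points for Myl7 and -0.0757 to 0.0719 for Myl4. These positive ends were without control library 1. With library-size scaling alone Cryab turned to 0.035, Myom1 to 0.011 and Tnnc1 to 0.041. With a library left out the sign also turned for Cryab (-0.14 to 0.12), Ldb3 (-0.17 to 0.18), Mybpc3 (-0.13 to 0.37), Myom1 (-0.15 to 0.021), Myom2 (-0.14 to 0.44), Synpo2l (-0.061 to 0.47), Tmod1 (-0.098 to 0.26), Tnnc1 (-0.25 to 0.12) and Unc45b (-0.077 to 0.19), none of which had an unadjusted p under 0.05. The cause was not tested. With 3 animals a group, an exact test cannot go below 0.1, and Tnni1, Tpm2, Myl7 and Nexn rest on few counts.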

Other observations

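Among the ventricular markers, Irx4, a transcription factor of the ventricle that is known to act on chamber-specific myosin genes, was at 56.9, 40.0 and 34.6 CPM in control libraries 1, 2 and 3 and at 88.3, 89.6 and 140 CPM in doxorubicin libraries 1, 2 and 3. The groups did not overlap, and Irx4 was higher by 1.28 on the log2 scale (SE 0.24; edgeR adjusted p 0.0833). The other ventricular markers tested, Hey2 at -0.32 (SE 0.26) and Lbh at 0.22 (SE 0.21), overlapped between the groups. Tbx20, a heart transcription factor, was at 22.8, 5.62 and 36.3 CPM in doxorubicin libraries 1, 2 and 3 and at 4.96 to 9.77 CPM in control libraries, with doxorubicin library 2 again within the control range. These genes were singled out after their values were seen.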
